A study of Mus musculus with 18 samples.

Results

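The polyhomeotic genes Phc1, Phc2 and Phc3 and the Sex comb on midleg genes Scmh1 and Scml2 encode the SAM-domain proteins of the Polycomb system. They were taken by symbol from a focused array of 64 genes, on which all 5 are present, each with 2 spots. The Polycomb complex PRC1, in its several forms, ubiquitinates histone H2A and compacts chromatin at silenced genes. Polyhomeotic proteins are subunits of its canonical form, canonical PRC1. Their SAM domain joins head to tail into chains, which is known to cluster Polycomb-bound chromatin. Scm proteins carry MBT repeats beside a SAM domain that binds the polyhomeotic one, and in Drosophila Scm links PRC1 with PRC2, the complex that methylates histone H3. A cell can use any of the paralogues, so the first question was which of them these cells express, and the second whether that changed with the age of the donor.

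The cells were mesenchymal stem cells of inguinal fat. The mice were FVB, an inbred albino strain, and the cells were cultured to within the fifth passage with no other treatment. There were 4 samples of donors aged 1 month, 3 each at 3, 6 and 12 months and 2 at 24 months, 15 in all, and 3 of them were hybridised a second time, which gives 18 arrays. Since the cells were expanded in culture, the values describe cultured cells of donors of each age and not fat tissue. The labels number the samples within an age and do not say how cultures were separated, so p values measure the spread between these samples.

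The arrays fall into 2 sets by their names and their order in the data sheets, and what separates the sets is not stated. The first set has 12 arrays of 11 samples and holds every 3-month and 6-month sample. The second has 6 arrays of 6 samples and holds both 24-month samples. At 1 month, samples 1 and 8 have an array in each set, sample 5 is in the first and sample 2 in the second. At 12 months, samples 2 and 7 are in the first and sample 3 in the second. Median gene-spot signal per array ran from 10099 to 33357 mean pixel units in the first set and from 8286 to 18946 in the second, and 23 to 39 genes were present per array. Precision is limited by how few arrays there are at each age. None of 4 surface markers of mesenchymal stem cells looked for (Cd44, Thy1, Eng and Ly6a) is on the array, so the cell type could not be checked from its own markers. Among 5 genes of other cell types, Itgb2, Nckap1l and Ctsg of blood cells and Darc of endothelium were detected in 0 of 15 samples and Krt17 of epithelium in 1.

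Phc2 was the only one of the 5 genes detected in these cells. Detection in a sample required that 50% or more of the gene's spots there carried the authors' present call. Phc2 was detected in 15 of 15 samples, with 35 of its 36 spots present over the 18 arrays. Phc1, Phc3 and Scml2 had 0 of 36 spots present, Scmh1 had 1 of 36, and these 4 genes were detected in 0 of 15 samples. Of the 64 genes on the array, 15 (23.4%) were detected in no sample and 20 (31.2%) in all 15. Each gene has its own probe, and probes differ in how brightly they report a transcript, so the genes are compared by their calls and not by their signal. The rule behind the present and absent calls is not stated, and an absent call does not show that the transcript is missing.

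**Figure D1:**
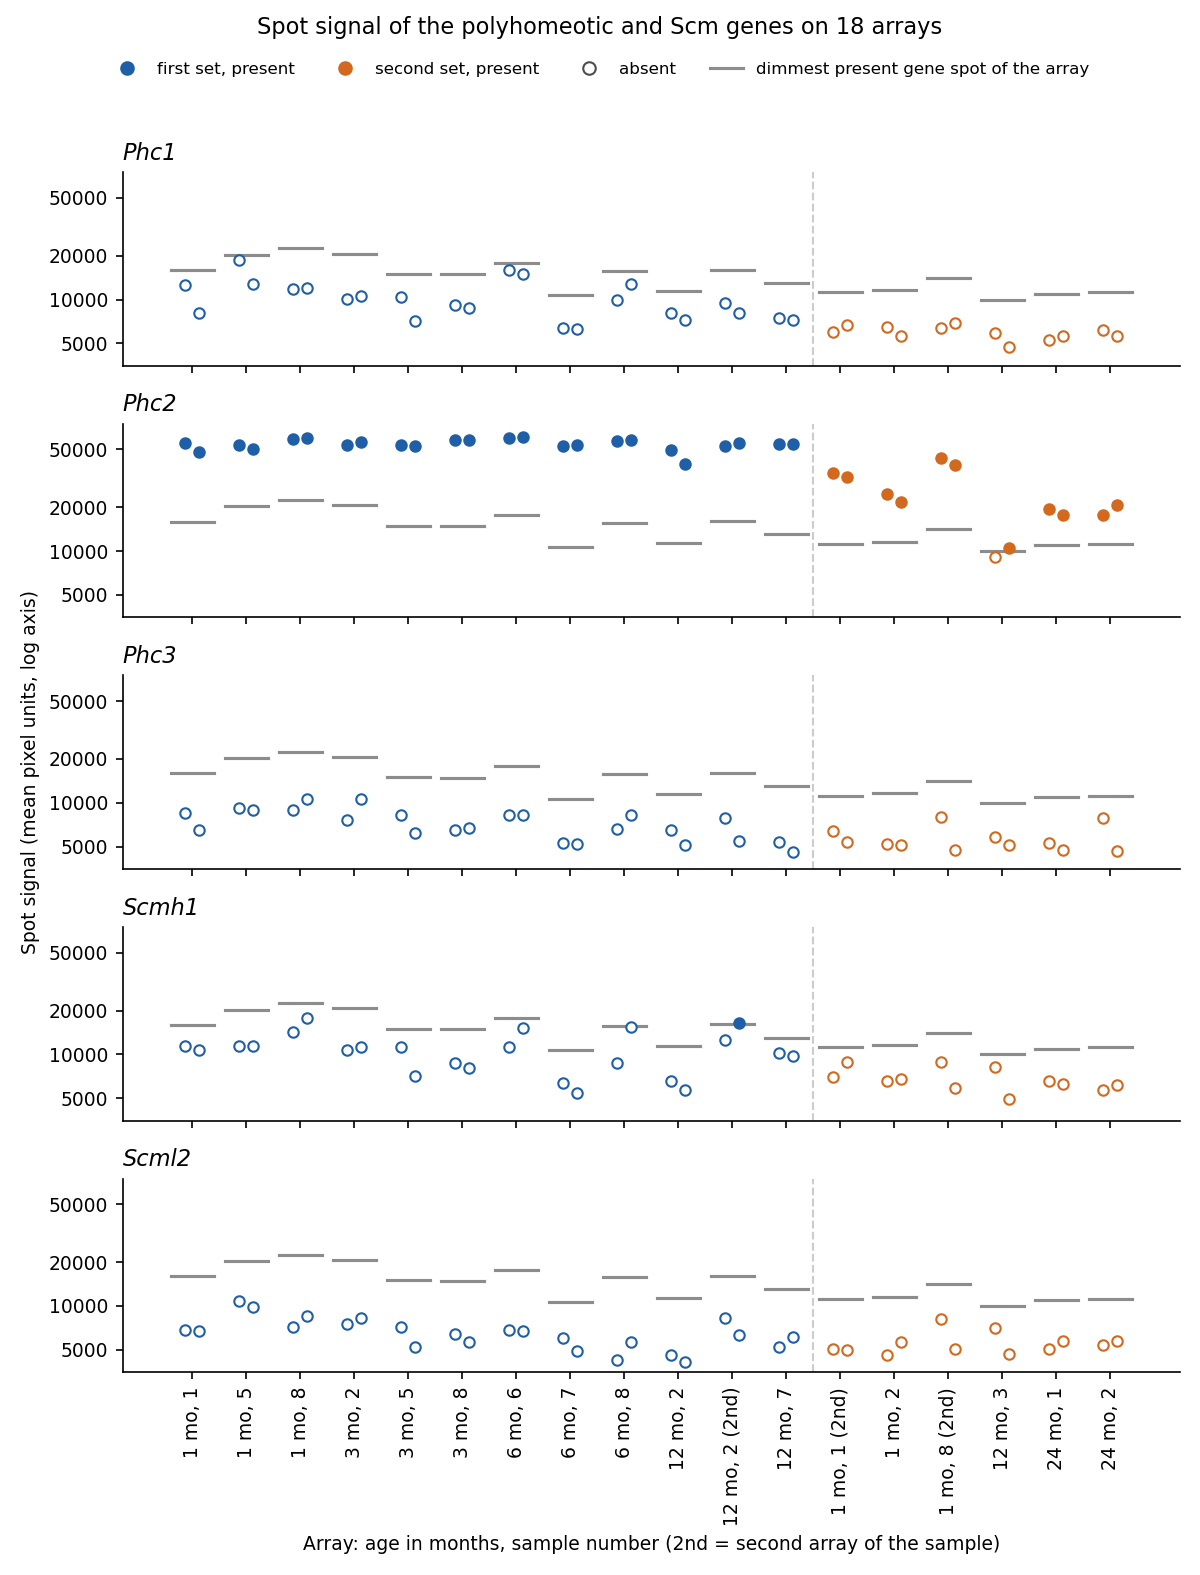
Signal of both spots of each gene (mean pixel units, log axis) on the 18 arrays, ordered by set and age, with filled points for spots called present, open points for spots called absent and a grey line at the dimmest gene spot called present on that array. Phc2 has 35 filled points of 36, Scmh1 has 1, and Phc1, Phc3 and Scml2 have none.

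Among the polyhomeotic genes, Phc2 lay well above the limit on first-set arrays and nearer to it on some second-set arrays. The dimmest gene spot called present on an array had a signal between 9991 and 22465 units. By definition no gene spot called present lies below it, so only the distance above it adds to the calls. Phc2 spots of the first set had 2.46 to 4.99 times the signal of that dimmest present spot. In the second set they had 0.91 to 3.10 times that signal. The only absent Phc2 spot was 1 of the 2 on the array of 12-month sample 3, at 9103 units beside 10452 units for its partner. Against the local background that the scanner read beside each spot, Phc2 spots stood at 1.53 to 4.497 times, with a median of 2.37. That ratio is a weak guide, because the local background follows the brightness of the spot: the 54 Gapdh spots, all called present, stood at only 1.01 to 1.08 times theirs. The Phc2 median was likewise lower in the brighter first set, at 2.23, than in the second, at 2.98, and a ratio near 1 does not by itself mark an undetected gene.

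Phc1, which acts in PRC1 of embryonic stem cells and early embryos, reached 0.45 to 0.92 times the signal of the dimmest present spot, with a median of 0.56. Its spots stood at 0.75 to 1.25 times their local background. Phc3, the third polyhomeotic subunit, reached 0.33 to 0.70 times the dimmest present signal and 0.56 to 1.14 times its local background. No spot of either gene was as bright as any gene spot called present on the same array, at any age. The calls do not follow signal alone: 50 of the 1002 absent gene spots, from 11 genes, were brighter than the dimmest present spot of their array, and 0 of these 50 belong to the polyhomeotic or Scm genes.

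Scmh1 came nearest to the limit of the genes not detected. Its spots had 0.42 to 1.02 times the signal of the dimmest present spot, with a median of 0.59, and 0.82 to 1.63 times their local background. Its 1 present spot was on the second array of 12-month sample 2. The mean Scmh1 signal there was 14445 units, against 6106 units on the first array of the same RNA sample, where both spots were absent. The hybridisations of 1 sample thus differed by 1.24 in log2 signal, which is more than a doubling. Scml2, an X-linked Scm gene known for its role in the male germ line, reached 0.27 to 0.70 times the dimmest present signal and 0.73 to 1.12 times its local background.

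No age difference can be read for the 4 undetected genes. Below the limit, the normalised log2 level of Scml2 differed by 3.03 between the 2 arrays of 12-month sample 2 and by 3.24 between those of 1-month sample 8. Its mean levels by age ran only from 8.64 to 10.82. Fitted without a filter on detection, over all 64 genes, these 4 genes gave 24 tests (6 each: the F-test, the 4 ages against 1 month and the slope). The lowest Benjamini-Hochberg adjusted p in limma was 0.213, for Phc3 at 6 months, and 4 of the 24 had an unadjusted p under 0.05. These were Phc3 at 6 months, at 12 months and in the slope, and Scmh1 at 12 months (log2 difference 0.68, SE 0.25). Tests of 1 gene over the same samples are not independent. The share of all 64 genes with such a p is not given here. The Phc3 log2 differences were 1.08 (SE 0.41) at 6 months and 1.07 (SE 0.41) at 12 months, between levels at which 0 of its 36 spots were present. The mean Phc3 signal itself was 7240 ± 1680 units (SD) over the 4 samples of 1 month, 6980 ± 1541 over the 3 of 6 months and 5553 ± 638 over the 3 of 12 months, so the unnormalised means and the normalised differences ran in opposite directions.

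Other PRC1 genes were compared by the same calls. Of a list of 16 genes, 10 are on the array. The chromodomain genes Cbx7 and Cbx8, whose proteins read methylated histone H3, were detected in 15 of 15 samples. The ubiquitin ligase gene Rnf2 was detected in 14 and its partner Bmi1, a Polycomb ring finger gene, in 13. Cbx2 was detected in 2 samples. Ring1, the paralogue of Rnf2, and Pcgf6, Rybp and E2f6 of variant PRC1 were detected in 1 sample each, and Pcgf2, the paralogue of Bmi1, in 0. With Phc2, at least 1 gene of each class of canonical PRC1 subunit (ring finger, ligase, chromodomain, polyhomeotic) was thus detected in at least 13 of 15 samples, and the chromodomain class had 2. From a list of 11 other SAM or MBT genes, only L3mbtl2, an MBT protein of variant PRC1, is on the array, and it was detected in 13 samples.

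**Figure D2:**
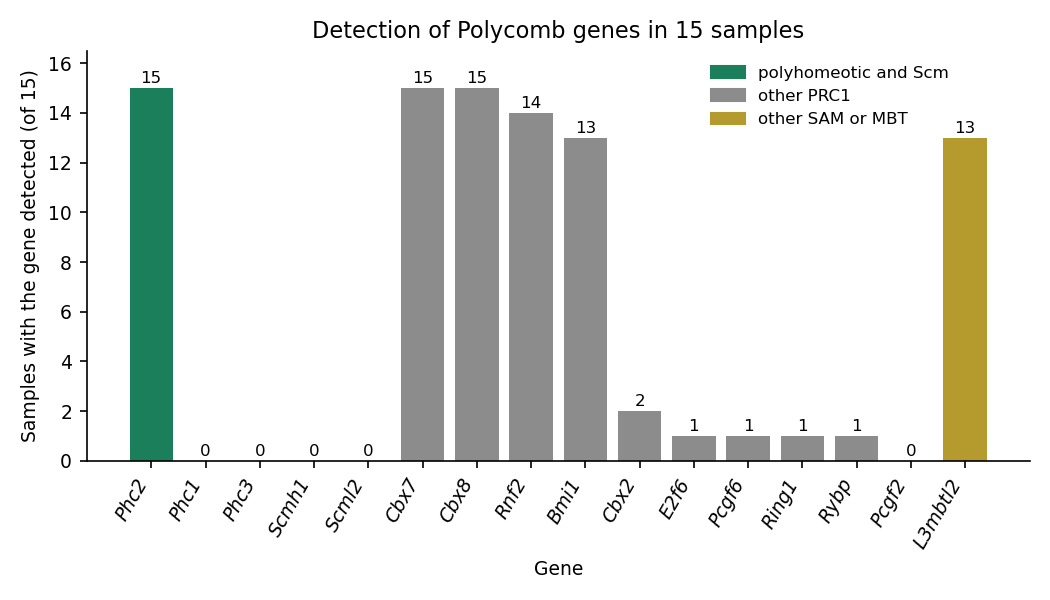
Number of samples, of 15, in which each gene was detected, as bars for the polyhomeotic and Scm genes (green), 10 other PRC1 genes on the array (grey) and L3mbtl2 (gold). Phc2, Cbx7 and Cbx8 reach 15, and Phc1, Phc3, Scmh1, Scml2 and Pcgf2 stand at 0.

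The Phc2 signal itself, in units, was higher on every array of the first set than on any of the second. At 1 month it was 51656 units on the first array of sample 1, 51871 units in sample 5 and 59547 units on the first array of sample 8. At 3 months it was 54975, 53164 and 58092 units in samples 2, 5 and 8. At 6 months it was 60156, 52860 and 57621 units in samples 6, 7 and 8, and 1 spot of sample 6 carried the mark for bleeding, or saturation. These 9 arrays overlapped across the 3 ages. At 12 months it was 44618 and 53808 units on the 2 arrays of sample 2 and 54499 units in sample 7, so only the first array of sample 2 fell below the younger ages. First-set spots of Phc2 lay at 62.7% to 95.5% of the brightest spot on their array, and that brightest spot read 62531 to 63681 units on all 18 arrays. Whether this nearness narrowed the first-set range was not tested. Relative to the median gene spot of its array, the Phc2 signal ran from 1.79 to 5.23 times in the first set. In the second set it ran from 1.18 to 2.62 times, so the sets overlapped on that measure.

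In the second set the 1-month values were 33525 units on the second array of sample 1, 23222 units in sample 2 and 41506 units on the second array of sample 8. The 12-month value was 9777 units in sample 3, and the 24-month values were 18588 and 19272 units in samples 1 and 2. The 3 arrays of older donors were thus all below the 3 arrays of 1-month donors, without overlap. After normalisation the groups did overlap: the levels were 15.05, 14.63 and 14.79 at 1 month, 14.19 at 12 months and 14.20 and 14.71 at 24 months. In the authors' deposited table of ratios to the housekeeping genes, Phc2 stood at 0.52, 0.37 and 0.655 on the 1-month arrays of the second set, at 0.155 at 12 months and at 0.29 and 0.31 at 24 months. That is the order of the signal.

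Over all samples, the normalised log2 level of Phc2 (1 unit is a doubling) was highest at 6 months and lowest at 24 months, and no age differed from 1 month past the threshold. At 1 month the mean was 15.07 ± 0.29 (SD, n = 4). The 3-month mean was 15.51 ± 0.18 and the 6-month mean 15.63 ± 0.02, each over 3 samples. The 12-month mean, also over 3, was 15.002 ± 0.71, and that of the 2 samples at 24 months 14.46 ± 0.37. The 6-month samples, at 15.64, 15.61 and 15.65, overlapped those of 3 months, at 15.33, 15.53 and 15.69. All 6 lay above the 1-month samples, at 15.20, 14.63, 15.25 and 15.19. The 12-month samples were split, at 15.32 and 15.49 in the first set against 14.19 in the second. The 24-month samples stood at 14.20 and 14.71, the higher of them above 1-month sample 2. Neighbouring ages in the order (6, 3, 1, 12 and 24 months) therefore lay within each other's spread, except 3 months and 1 month, whose values did not overlap. The 1-month values include second-set arrays, and those of 3 and 6 months do not. On first-set arrays alone the 1-month levels were 15.36, 15.25 and 15.60, which overlapped those of 3 months. The 6-month levels, from 15.61 to 15.65, still lay just above them.

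**Figure D3:**
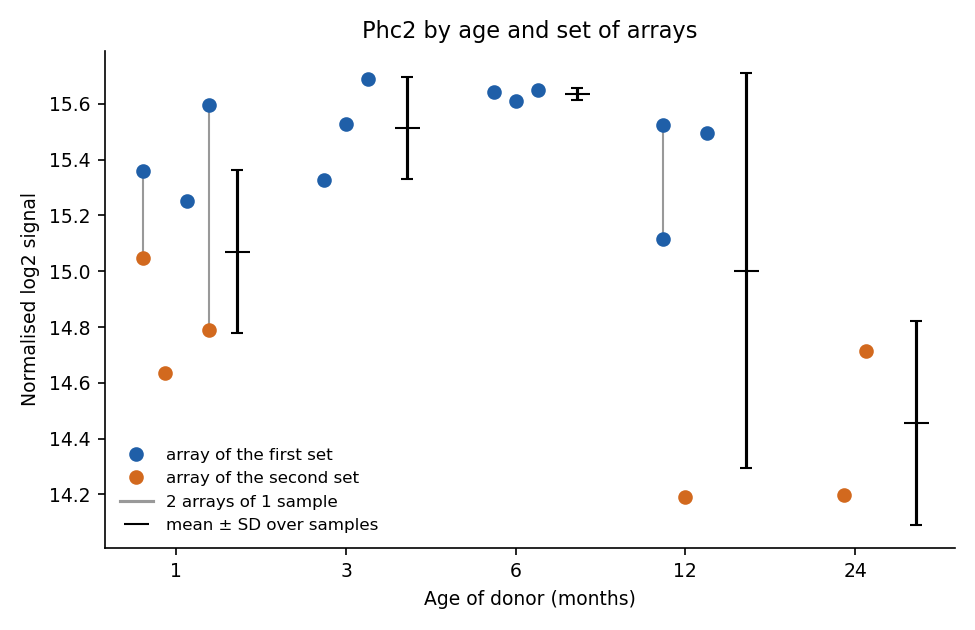
Normalised log2 signal of Phc2 by age of the donor in months, with 1 point per array, blue for the first set and orange for the second, a grey line joining the 2 arrays of 1 sample, and the mean ± SD over samples in black. All orange points lie below all blue points, from 14.19 to 15.05 against 15.11 to 15.69.

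The F-test over the 5 ages in limma gave Phc2 an adjusted p of 0.137, and 0 of the 38 genes tested (0%) were called, with 13 at an unadjusted p under 0.05. Phc2 ranked 7 of 38 by that test. The log2 difference from 1 month was 0.44 (SE 0.28, adjusted p = 0.536) at 3 months, where 0% of genes were called. At 6 months it was 0.56 (SE 0.28, adjusted p = 0.278), where 2.63% were called, a single gene other than Phc2. At 12 months it was -0.07 (SE 0.28, adjusted p = 0.995) and at 24 months -0.61 (SE 0.32, adjusted p = 0.321), with 0% of genes called at both. The 95% intervals were -0.18 to 1.07, -0.06 to 1.19, -0.70 to 0.56 and -1.33 to 0.10. The slope was -0.09 per doubling of age (SE 0.08, adjusted p = 0.621), with 0% of genes called. The median over all tested genes was within 0.003 of 0 in each of the 4 age comparisons. Quantile normalisation gives all arrays the same distribution over gene spots, so that median says little about a shift common to all genes.

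The array of 12-month sample 3 was the dimmest of the 18, with a median gene spot of 8286 units. Of the 15 samples left out in turn, it was the only one whose absence took the F-test of Phc2 past the threshold. Without it the F-test adjusted p of Phc2 was 0.0278, with 2 genes called in place of 0, and the 12-month difference turned to 0.34 (SE 0.19, adjusted p = 0.653). The adjusted p was then 0.0779 at 6 months and 0.124 at 24 months, with differences that leaving out a 12-month sample cannot change. The second set then holds samples of 1 and 24 months alone, and the part of the sets in that call was not tested. The 24-month difference was -0.36 without sample 1 of that age and -0.87 without sample 2.

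The largest tested difference of Phc2 was between the sets of arrays. With age and set in 1 limma fit over the 18 arrays, and the sample as a random block, Phc2 was lower in the second set by a log2 difference of -0.78 (SE 0.15, 95% interval -1.10 to -0.45, adjusted p = 0.00275). The fit called 9 of 38 genes (23.7%) between the sets, 5 lower in the second and 4 higher. The median over all tested genes was 0.0016. On this quantile normalised scale both samples with an array in each set showed the direction: sample 1 went from 15.36 to 15.05 and sample 8 from 15.60 to 14.79. The 2 arrays of 12-month sample 2, both in the first set, differed by 0.41. Relative to the median gene spot of the array, both paired samples went the other way. The Phc2 signal rose from 2.38 to 2.62 times that median in sample 1 and from 1.79 to 2.19 times in sample 8.

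The set difference depended on the scaling of the arrays and on the background correction. With the arrays centred on their median gene spot it was 0.0013 (adjusted p = 0.997 in limma) and the call was lost, and with no scaling it was -1.35. The call was also lost with the local background in normexp, at -0.44 (adjusted p = 0.0805). The median over tested genes moved with the scaling, to 0.63 with median centring and -0.62 with none. Taken relative to that median over tested genes, Phc2 was lower in the second set by between 0.55 and 0.78 log2 units. The range covers all 5 scalings (quantile, median, housekeeping genes, the authors' deposited ratios and none). Median, housekeeping and no scaling differ only by a constant per array, so agreement between them is largely built in. These relative values were not tested.

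With the sets taken into account, the age differences of Phc2 were nearer 0 at 3, 6 and 24 months, moved either way at 12 months, and did not pass the threshold at any age. With the set as a term they were 0.01 (SE 0.18) at 3 months, 0.13 (SE 0.18) at 6 months, -0.23 (SE 0.15) at 12 months and -0.27 (SE 0.20) at 24 months, with 0% of genes called at each age. In the first set alone they were 0.11 (SE 0.11) at 3 months, 0.23 (SE 0.11) at 6 months and 0.01 (SE 0.13) at 12 months, with 0%, 7.89% and 2.63% of genes called and Phc2 not among them. In the second set alone they were -0.63 (SE 0.29) at 12 months, from 1 sample, and -0.37 (SE 0.23) at 24 months, with 2.63% and 0% of genes called and Phc2 again not among them. The adjusted p of Phc2 in these limma fits lay between 0.294 and 0.994. No array of a 24-month sample is in the first set, and none of a 3-month or 6-month sample in the second, so 24 months and the middle ages share no set.

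**Figure D4:**
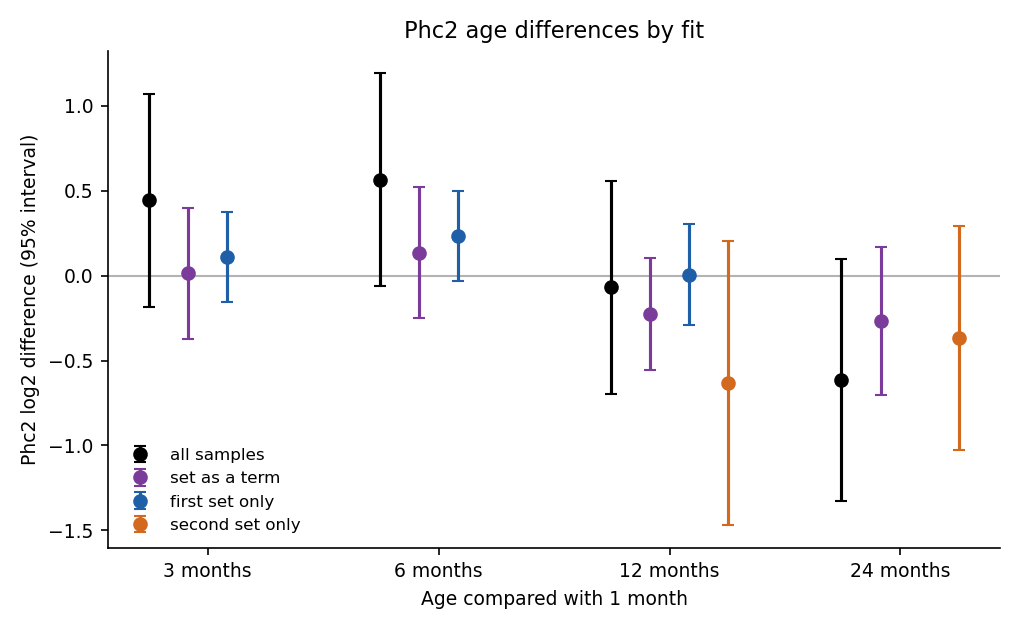
Phc2 log2 difference of each older age from 1 month, with its 95% interval, in the fit over all samples (black), with the set as a term (purple), in the first set alone (blue) and in the second alone (orange). All 13 intervals include 0, and the black point at 6 months, 0.56, falls to 0.13 with the set as a term.

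The other tested PRC1 genes gave no call either. Of 5 tested, 0 passed at any age or in the slope. The lowest adjusted p in limma was 0.0833, for Cbx2 at 6 months with a log2 difference of 1.64 (SE 0.51). Cbx2 had only 2 of 36 spots present and was detected in 2 of 15 samples. Its difference thus lies mostly between levels called absent, where an age difference cannot be read. In the fit over all samples, without a set term, the median log2 difference of the 5 genes was -0.14 at 6 months and 0.01 at 24 months. Phc2 had 0.56 and -0.61. The 5 genes were widely spread, from -0.57 for Bmi1 to 1.64 for Cbx2 at 6 months. At 24 months they ran from -0.06 for Bmi1 to 1.64 for Cbx2. L3mbtl2 had -0.19 and -0.92 at these ages. Over all 38 tested genes, 0% to 2.63% were called in these age tests. Between the sets, 0 of the 5 PRC1 genes were called, against 23.7% of all 38. Their set differences still ran from -1.70 for Cbx7 to 0.91 for Bmi1, against -0.78 for Phc2. The adjusted p in limma was 0.117 for Cbx7 and 0.270 for Bmi1. With 5 genes, neither count can be told apart from the share over all tested genes.

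The genes whose levels ran most like Phc2 over the 15 samples were Arid1a, a DNA-binding subunit of SWI/SNF, at a Pearson correlation of 0.91, Ezh1, a PRC2 methyltransferase, at 0.79, and the deacetylase gene Sirt1 at 0.74. The most opposed were Eed, a PRC2 core subunit, at -0.81 and Smarcc2, a SWI/SNF core subunit, at -0.77. All 5 were among the 9 genes that differed between the sets, the first 3 lower in the second set, by -1.96, -1.51 and -1.40, and the last 2 higher, by 0.27 and 0.53. Over the 11 samples of the first set alone the 5 correlations were 0.14, -0.39, 0.14, -0.12 and -0.13. Phc2 is itself among those 9, and the 5 genes were chosen by their correlation with it over these same samples. Their difference between the sets therefore follows in part from the choice. Within the first set the Phc2 levels of the samples ran only from 15.25 to 15.69, which leaves little variation to correlate with. These are descriptions over samples that share arrays of 2 sets, and no test was made of them.

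**Figure D5:**
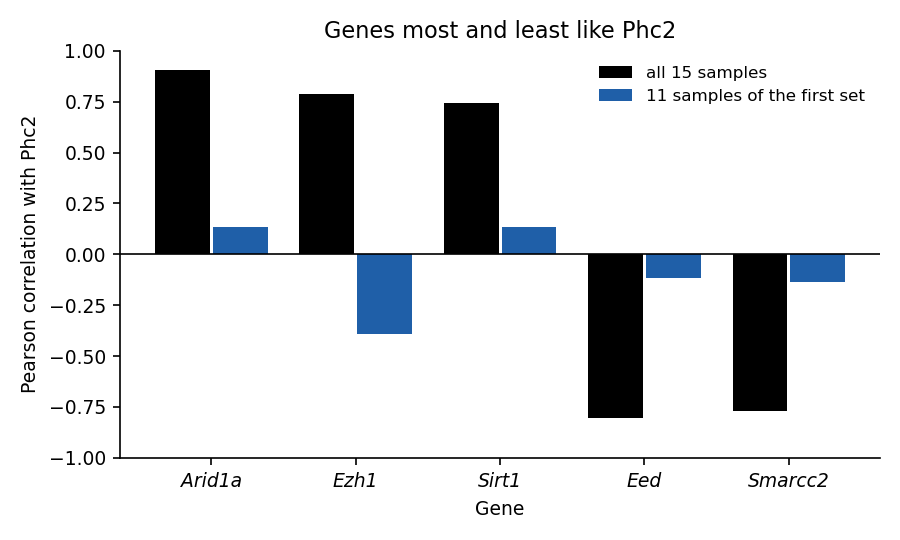
Pearson correlation of 5 genes with Phc2 on the normalised log2 scale, over all 15 samples (black) and over the 11 samples with a first-set array (blue). The black bars run from 0.91 to -0.81 and the blue bars from 0.14 to -0.39.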

How the data were processed

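Gene symbols are those of the array's sheets, and each of the 5 was found in a RefSeq gene table of assembly GRCm38.p6, 4 of them also by accession. The deposited raw sheet gives spot intensity summed over a spot, local background, area and the authors' present, absent and bleeding marks, per the file headers. A deposited table gives the authors' ratio of each gene's spots to the median housekeeping spot, recomputed from the intensity to within 0.0071. For the scanner and its software, the entry is: not given in the sources used here. In the sheets, 5 columns of other samples were not used.

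Intensity was divided by spot area and corrected with normexp (offset 50) on the spot signal alone. The values were put on a log2 scale, quantile normalised over gene spots and averaged over spots, then over arrays of a sample. The 38 genes detected in at least 2 samples were fitted with limma 3.58.1 (R 4.3.3), with Benjamini-Hochberg adjustment over all 38 and a threshold of 0.05. Only Phc2 of the 5 genes passed that filter. A part of the results for the listed genes is not reported here. The fit was tested on simulated data. Genes named besides the 5 are the listed PRC1, SAM and MBT genes and, by rule, the 3 highest and 2 lowest in correlation with Phc2. These genes, lists and tests were chosen with earlier results of these data known. No sequences are printed. The alternatives tried were other scalings, backgrounds, filters, treatments of second arrays, sets and samples left out, array weights and other detection rules.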

Additional observations from a re-analysis of the deposited data

Results flagged for a closer look

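Phc2 in 1-month sample 2 stood apart from the other 3 samples of its age. Its normalised log2 level was 14.63, against 15.19 to 15.25 in the others, and the gap to its nearest neighbour was 0.908 of the range of the group, above Dixon's 95% critical value for 4 samples. Groups of 4 exist only at 1 month, the 5 genes gave 5 such tests, and chance passes about 1 in 20. Its single array is in the second set, where the second arrays of samples 1 and 8 read 15.05 and 14.79. The part of the set in the gap was not tested.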

How the results depend on the processing

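Phc2 was detected in 14 samples when every spot had to be present, and in 15 with any spot present or with signal above the highest plasmid or negative control spot. Phc3 and Scml2 stayed at 0 under all 3 rules. Scmh1 reached 1 sample with any spot present and 1 above the controls, and Phc1 reached 1 above the controls. The signs of the Phc2 differences at 3, 6 and 24 months held under every alternative that gave a value, and none was called. At 12 months the sign turned, to 0.029 with the local background in normexp, 0.0051 in the first set alone, 0.19 with array weights and 0.37 with the replicate number as a replicate block, and leaving out 1 sample at a time gave -0.32 to 0.34. The slope was 0.028 in the first set alone. The F-test adjusted p was 0.0493 with array weights, and 0.0278 to 0.473 leaving out 1 sample at a time. The difference between the sets was 0.0013 with median centring and -0.44 (adjusted p = 0.0805) with the local background. The cause of these changes was not tested. Over all genes, the F-test called 9 with array weights, 2 in the first set alone or without 12-month sample 3, and 1 with median centring, in the second set alone, or without 1-month sample 2 or either 24-month sample. At 12 months each set alone called 1. At 6 months the count ran from 0 to 3, and between the sets from 3 to 21. The labels do not say whether the replicate numbers pair samples across ages, and the main fit did not treat them as paired. Same-numbered samples correlated at -0.42 to 0.40 (12 pairs, 6 of them above 0.1), and 2 of 13 samples correlated best with their own number. The nearness of Phc2 to the brightest spots in the first set and the 2 samples at 24 months limit what a difference could show. The run without normalisation between arrays was added after the data were seen.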
